A study of Mus musculus with 4 samples.

Results

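The 8 intermediate filament genes Gfap, Vim, Nes, Synm, Nefl, Nefm, Nefh and Ina were followed through the cell classes of the mouse hippocampus. They were taken by symbol from the deposited feature list, where each matched 1 of 55403 features, and their unique molecular identifiers (UMIs) were summed per cell class and library. The libraries hold nuclei from frozen hippocampus, pooled within a group and profiled with a droplet 3′ kit (10x Genomics, version 3.1). WT mice were the reference, with 1 library. PS19 mice (B6;C3 background, 2 libraries) carry human tau with the P301S substitution in its 1N4R isoform, expressed from the prion protein promoter (Prnp), and are used as a tauopathy model. TG_PS19 mice (1 library) carry that tau transgene and a second one, in Rosa26, which overexpresses the sorting receptor SORLA from a CMV/β-actin promoter element, so not from a cell type-specific one. The mice were littermates and the series title calls them aged, while their exact age, their sex, the number pooled and the number of pools behind the PS19 pair are not given in the sources used here. WT and TG_PS19 had no replicate, so the only replicate spread behind the p-values below is that between the PS19 pair, which may be technical. The tests draw each gene's spread towards that of the other genes in its fit. A p-value therefore does not rest on the gene's own PS19 pair alone.

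Intermediate filaments are rope-like polymers of the cytoskeleton that assemble from elongated coiled-coil proteins, and each cell type builds them from its own set. Astrocytes use glial fibrillary acidic protein (Gfap) together with vimentin (Vim), synemin (Synm) and, in immature or reactive cells, nestin (Nes), and a rise of Gfap and Vim is the classical sign of a reactive astrocyte. Neurons use the light, medium and heavy neurofilament chains (Nefl, Nefm, Nefh) and α-internexin (Ina), which set axon calibre. Vimentin, nestin and synemin also occur in cells of the vessel wall, where vimentin is the common filament of mesenchymal and endothelial cells.

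After filters, 29616 nuclei were kept, 11458 of WT, 4467 and 4728 of the PS19 libraries and 8963 of TG_PS19. The deposited libraries held 48670533, 20064025, 26198644 and 38971002 UMIs in that order. Median UMIs per astrocyte ran from 2900.5 in WT to 4562 in PS19 replicate 2. Clusters were named from marker lists without the 8 genes, and 12 classes with at least 50 nuclei in every library were tested. In the astrocytes none of the 10 astrocyte markers was at 0 in any library, and their summed level was between 23376 and 27864 counts per 1000000 UMIs of the class (CPM). Human MAPT, the tau transgene, had 0 UMIs in WT, 357 and 489 in the PS19 libraries and 489 in TG_PS19. Human SORL1 had 2, then 7 and 0, then 2537 UMIs in the same order. The TG_PS19 library stood apart in sex-linked RNA: 50.8% of its nuclei had Xist and no Y-linked UMIs, against 0.11% to 0.24% in the other libraries, so it held nuclei of both sexes. For the called Gfap, Vim and Nefl changes of TG_PS19 against PS19 in astrocytes, values are also given for its male-called nuclei alone (478 of its 1659 astrocytes). A nucleus was called male if it had a Y-linked UMI and no Xist UMI, and only TG_PS19 nuclei were selected by this rule. WT and PS19 kept all their nuclei, of which 68.3% in WT and 72.1% and 75.6% in PS19 met it. Pairs of libraries shared between 5 and 32 barcodes. The PS19 libraries differed from each other by more than counting noise in all 12 classes.

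All gene positions are of mouse build GRCm38 with GENCODE M21 annotation, which the identifiers matched. Gfap lies at chr11:102887336-102900912 on the minus strand, Vim at chr2:13573927-13582826 on the plus strand, Nes at chr3:87971078-87980451 on the plus strand and Synm at chr7:67730160-67759742 on the minus strand. On the other strand Gfap overlaps Gm26668, and Synm overlaps Ttc23 and Gm45102. Nefl, at chr14:68083863-68089095 on the plus strand, lies inside the annotated span of Nefm, at chr14:68082590-68124846 on the minus strand. Whether the authors' counting used strand is not given in the sources used here, so the share of reads that these 2 genes exchanged is unknown. Nefh lies at chr11:4938754-4948064 on the minus strand, and Ina at chr19:47014698-47025327 on the plus strand, overlapping Nt5c2 on the other strand.

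The start regions of Gfap, Vim and Synm are shown because the first 2 moved together in astrocytes and the third, which polymerises with them, did not pass the test there. They come from RefSeq (GRCm38.p6) and are written 5′ to 3′ on the strand of the gene. Each has 250 bases before and 20 bases from the listed start. The Gfap and Vim windows lie inside the gene spans given above, so their listed starts are not the outer 5′ ends of those spans.
Gfap (chr11:102897181-102897450, minus strand): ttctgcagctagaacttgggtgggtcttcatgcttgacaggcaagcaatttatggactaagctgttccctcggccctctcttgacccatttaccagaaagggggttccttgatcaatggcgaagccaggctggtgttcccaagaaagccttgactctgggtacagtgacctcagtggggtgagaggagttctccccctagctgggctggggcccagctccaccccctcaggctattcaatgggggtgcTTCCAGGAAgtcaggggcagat
Vim (chr2:13574061-13574330, plus strand): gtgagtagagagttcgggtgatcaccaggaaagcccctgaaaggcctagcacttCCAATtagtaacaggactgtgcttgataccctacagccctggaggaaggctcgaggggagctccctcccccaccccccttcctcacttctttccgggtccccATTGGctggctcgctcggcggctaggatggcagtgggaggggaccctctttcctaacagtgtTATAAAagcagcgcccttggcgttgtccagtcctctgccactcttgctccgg
Synm (chr7:67759723-67759992, minus strand): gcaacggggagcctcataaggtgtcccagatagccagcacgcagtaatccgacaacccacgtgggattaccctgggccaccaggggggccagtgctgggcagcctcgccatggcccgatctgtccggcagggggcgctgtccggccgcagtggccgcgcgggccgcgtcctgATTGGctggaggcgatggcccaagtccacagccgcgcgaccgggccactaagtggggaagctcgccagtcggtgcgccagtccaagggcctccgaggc
Capitals mark matches, on either strand, to the letters TTCNNNGAA (the core that STAT factors bind), TGANTCA (AP-1), CCAAT (its reverse complement is ATTGG) and TATAAA, which do not overlap one another here. The Gfap window held 1 TTCNNNGAA, a pattern that 7.58% of 32851 RefSeq start windows of this length hold. That match begins at position -2 and so runs across the listed start. The Vim window held 2 CCAAT matches and 1 TATAAA, and the Synm window held 1 CCAAT, against 35.4% of windows with CCAAT and 12.9% with TATAAA. No TGANTCA was found in the 3 windows, and 7.23% of all windows hold it. The GC content was 55.9% for Gfap, 58.9% for Vim and 70% for Synm, where the median of all windows was 52.6%. A match is a description of the letters and not a measured binding site. Nefl, Nefm and Nefh are named only.

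**Figure D1:**
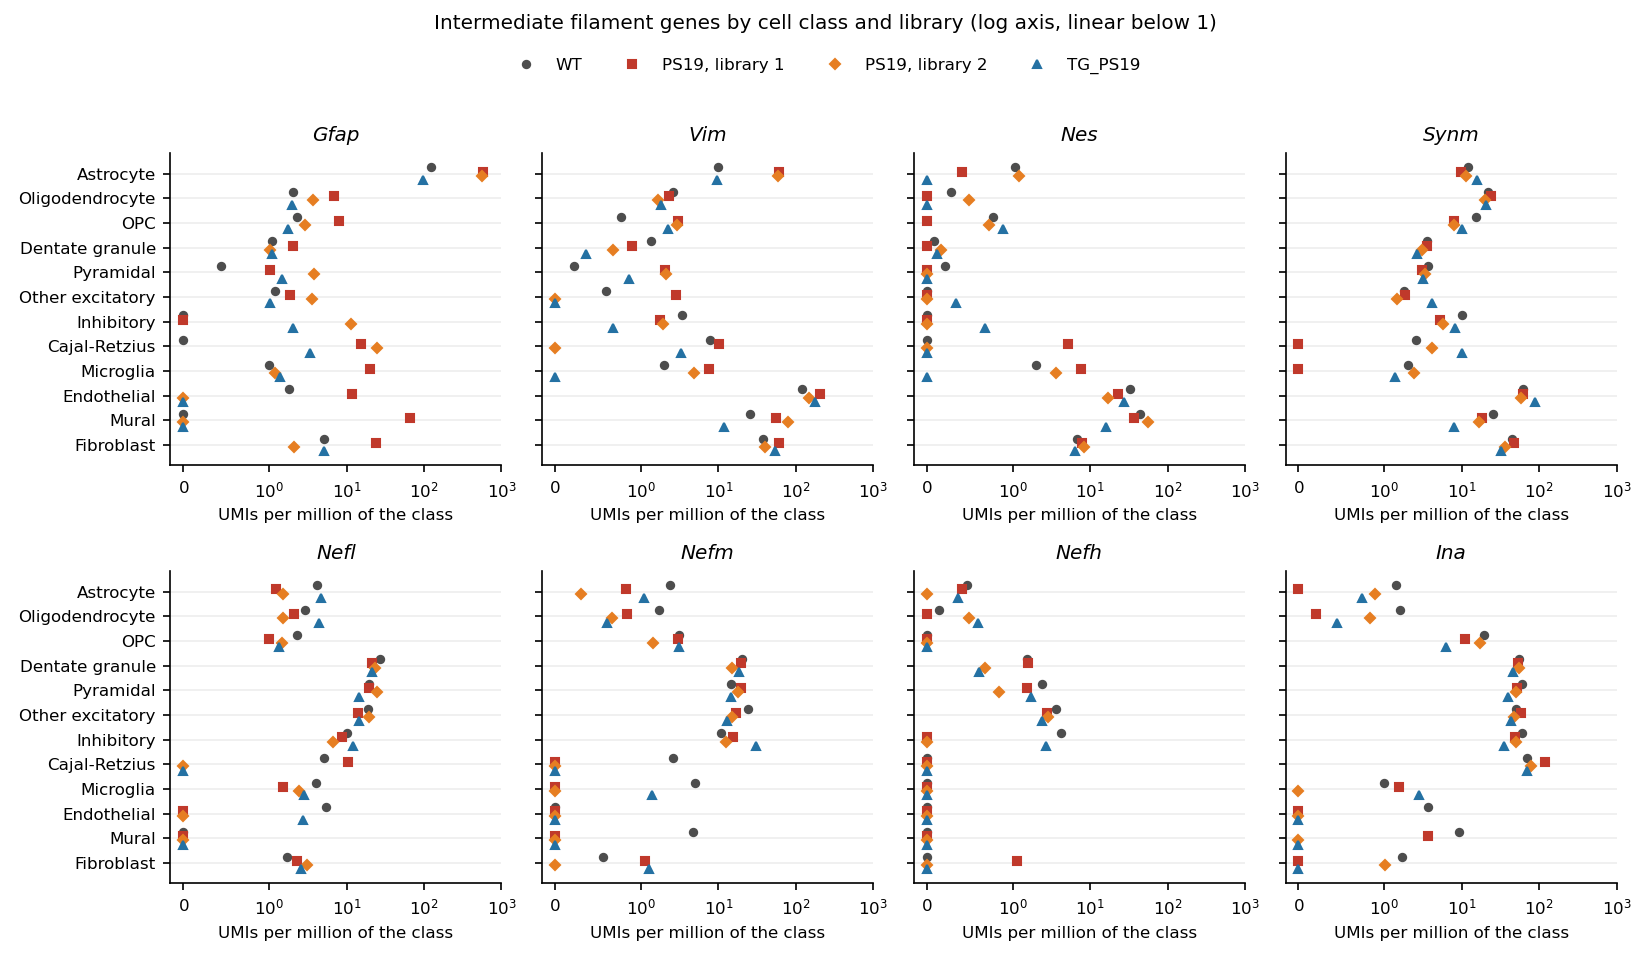
Level of each of the 8 genes in the 12 tested classes, 1 panel per gene, with CPM (UMIs of the gene per 1000000 UMIs of the class) on a symmetric log axis and 1 point per library. Gfap stands highest in astrocytes in all 4 libraries, with the PS19 libraries at 580.6 and 565.4 CPM against 122.3 in WT and 97.9 in TG_PS19, while for Nefl and Ina in dentate granule neurons the 4 points lie close together, at 20.9 to 26.9 and 45.7 to 54.2 CPM.

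Gfap was an astrocyte gene in every library. Astrocytes held 93.8% of the Gfap UMIs of the kept WT nuclei, 91.9% and 94.6% of those of the PS19 libraries and 85.5% of those of TG_PS19. The Gfap level in astrocytes was 122.3 CPM in WT (95% Poisson interval 115.0 to 130.0, from 1033 UMIs in 2778 nuclei). It was 580.6 (550.8 to 611.7, 613 nuclei) and 565.4 CPM (540.2 to 591.4, 690 nuclei) in the PS19 libraries, and 97.9 CPM in TG_PS19 (89.7 to 106.6, 1659 nuclei). Both PS19 libraries lay several times above the other two, and the TG_PS19 library was the lowest. All intervals here cover counting error only.

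In edgeR's quasi-likelihood test Gfap rose in PS19 astrocytes against WT by a log2 fold change of 2.20 (SE 0.14, adjusted p = 6.99e-51). It fell by 2.37 in TG_PS19 against PS19 (SE 0.15, adjusted p = 5.24e-56 by edgeR). With the male-called TG_PS19 nuclei alone Gfap fell by 2.31 (adjusted p = 2.46e-41 by edgeR). The same test gave -0.18 for TG_PS19 against WT (SE 0.16, adjusted p = 0.734). The PS19 pair stands in both of the first comparisons, so their opposite signs are not independent of each other.

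Over all 8 genes and 12 classes, 44 combinations of gene and class had enough counts for the test. For PS19 against WT 2 were called at an adjusted p under 0.05, where 2.76% of all 146123 tests of genes were called. For TG_PS19 against PS19 3 were called, beside 4.83% of all tests. For TG_PS19 against WT edgeR called 0, beside 1.93% of all tests, with 5 at an unadjusted p under 0.05 and 0 called by DESeq2. All calls were in astrocytes, where 6.19%, 9.71% and 2.55% of the 16568 genes tested were called in the 3 comparisons. They were Gfap and Vim in both of the comparisons with PS19, and Nefl in the second. With the male-called TG_PS19 nuclei alone 37 combinations were tested for TG_PS19 against PS19, and 4 were called, these 3 and Gfap in oligodendrocytes. In that setting 4684 of all 139654 tests of genes were called. Of the 44 combinations, 42, 41 and 44 were not called, and their adjusted p ran from 0.0546, 0.0669 and 0.0837 upwards.

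**Figure D2:**
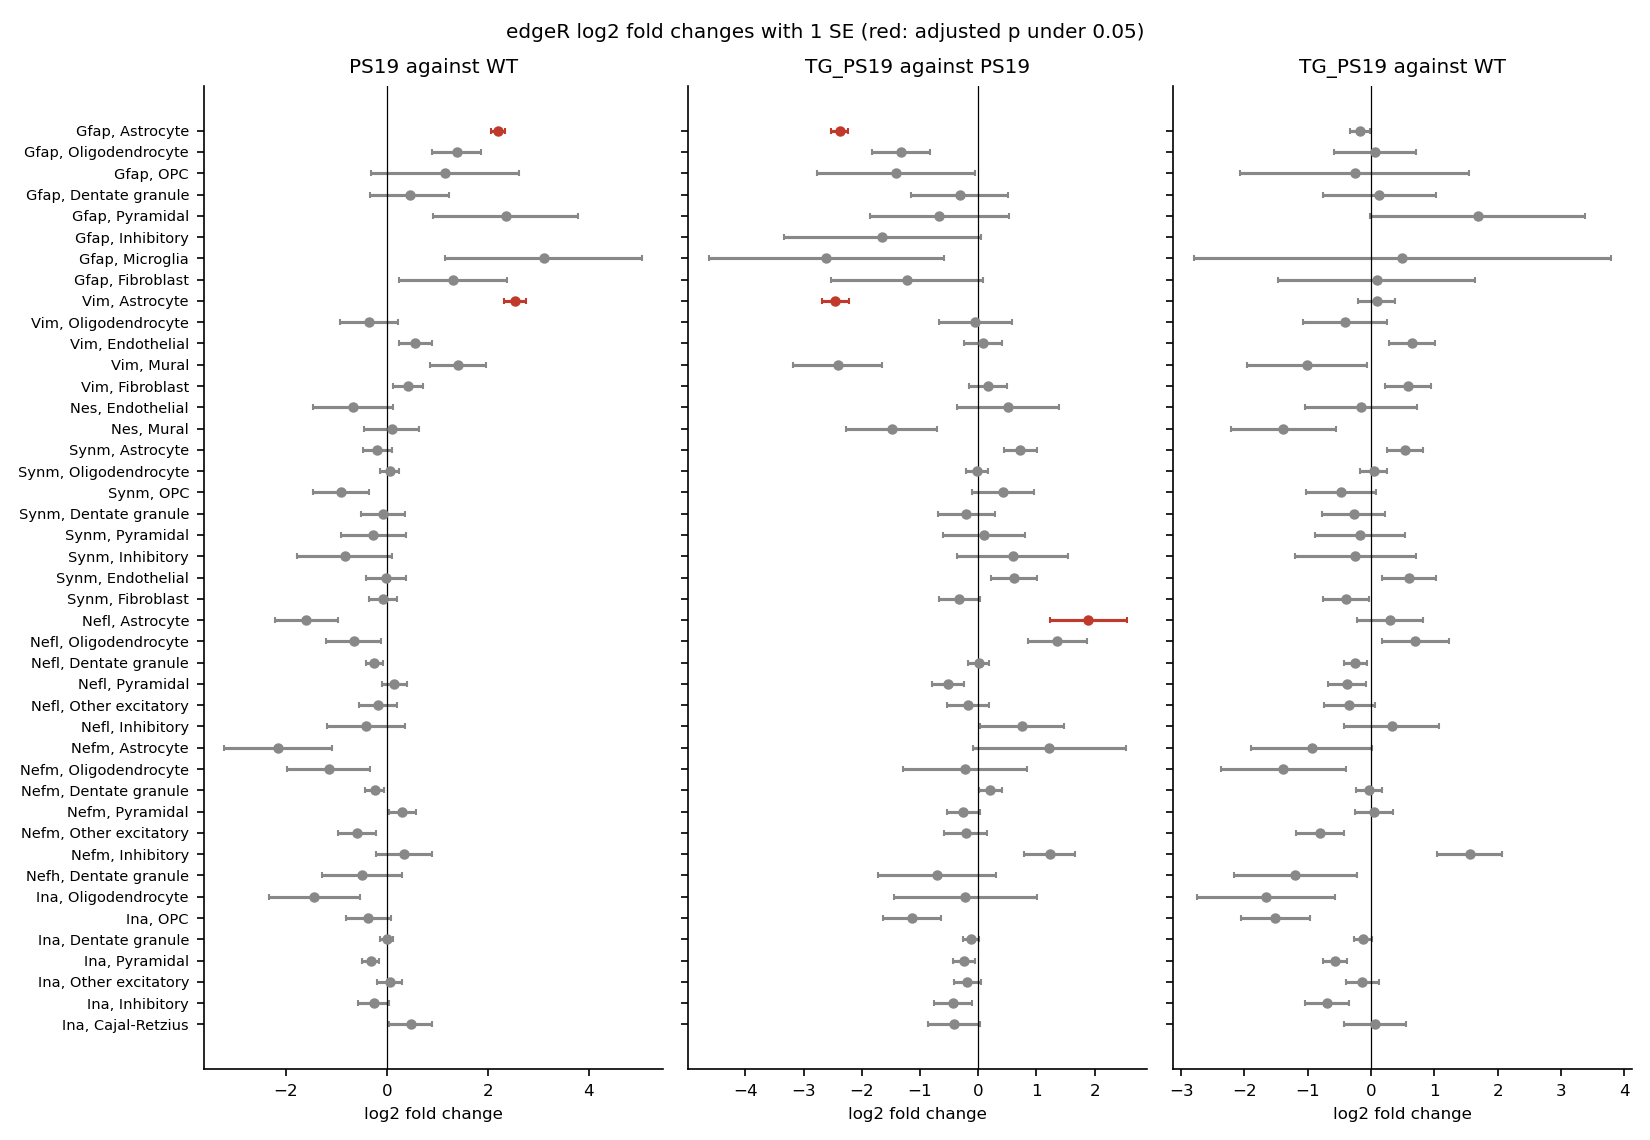
Log2 fold change from edgeR (points, with bars of 1 standard error) of each gene and tested class in the 3 comparisons, with calls at an adjusted p under 0.05 in red and values with a group at 0 UMIs left out. Gfap and Vim in astrocytes stand near 2.2 to 2.5 for PS19 against WT and near -2.4 for TG_PS19 against PS19, and the red point of Nefl in astrocytes lies at 1.89 in the latter.

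The share of astrocytes with a Gfap UMI moved with the level. After every nucleus was thinned to 1000 UMIs, 9.97% of WT astrocytes had one (exact binomial interval 8.88% to 11.2%). The shares were 32.1% (28.5% to 36.0%) and 29.0% (25.6% to 32.5%) in the PS19 libraries and 8.58% (7.27% to 10.0%) in TG_PS19. The intervals of the PS19 libraries overlap each other and lie above those of WT and TG_PS19. Thinning left out 11 shallower WT and 15 TG_PS19 astrocytes and 0 of PS19, and the unthinned shares were 22.7%, then 53.7% and 57.4%, then 21%. Neurons, which do not make Gfap, showed 0.0815% in WT, 0.239% and 0.107% in PS19 and 0.326% in TG_PS19 at the same depth, from nuclei with unthinned medians of 6810 to 10630 UMIs. Astrocytes with at least 5 Gfap UMIs at this depth made up 0.0361% in WT, 2.12% and 1.16% in PS19 and 0% in TG_PS19.

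The astrocytes fell into clusters of different Gfap level, and the PS19 libraries were the highest in each. In the largest, led by Rorb and Gpc5 and numbered 0, Gfap was at 74.7 CPM in WT, 204 and 239 in PS19 and 62.2 in TG_PS19. In cluster 8, led by Myoc, Aqp4 and Id3, it was at 381, then 1111 and 1004, then 291 CPM. In cluster 16, led by Adgrv1 and Hopx, it was at 122, then 874 and 668, then 91.7 CPM, from 171, 28, 34 and 88 nuclei, too few for a fit. In no cluster did WT or TG_PS19 reach a PS19 library.

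The class total mixes these clusters in different proportions. Cluster 8 was 14.9% of astrocytes in WT, 36.1% and 37.5% in PS19 and 14.6% in TG_PS19. Within clusters, chosen as an alternative after the data had been seen, the Gfap changes were smaller than in the class total. For PS19 against WT edgeR gave 1.60 in cluster 0 (adjusted p = 1.95e-20, 1.44% of genes called) and 1.44 in cluster 8 (adjusted p = 5.68e-09, 3.97% called). For TG_PS19 against PS19 Gfap fell by 1.72 in cluster 0 (adjusted p = 1.91e-21, 3.43% of genes called) and by 1.70 in cluster 8 (adjusted p = 2.70e-11, 5.54% called), by the same test. The Gfap effect did not differ detectably between the clusters: the difference, cluster 8 minus cluster 0, was -0.19 (adjusted p = 0.744, 0.883% of genes called) and 0.05 (adjusted p = 0.967, 1.32% called) in an edgeR fit with the library as a term.

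**Figure D3:**
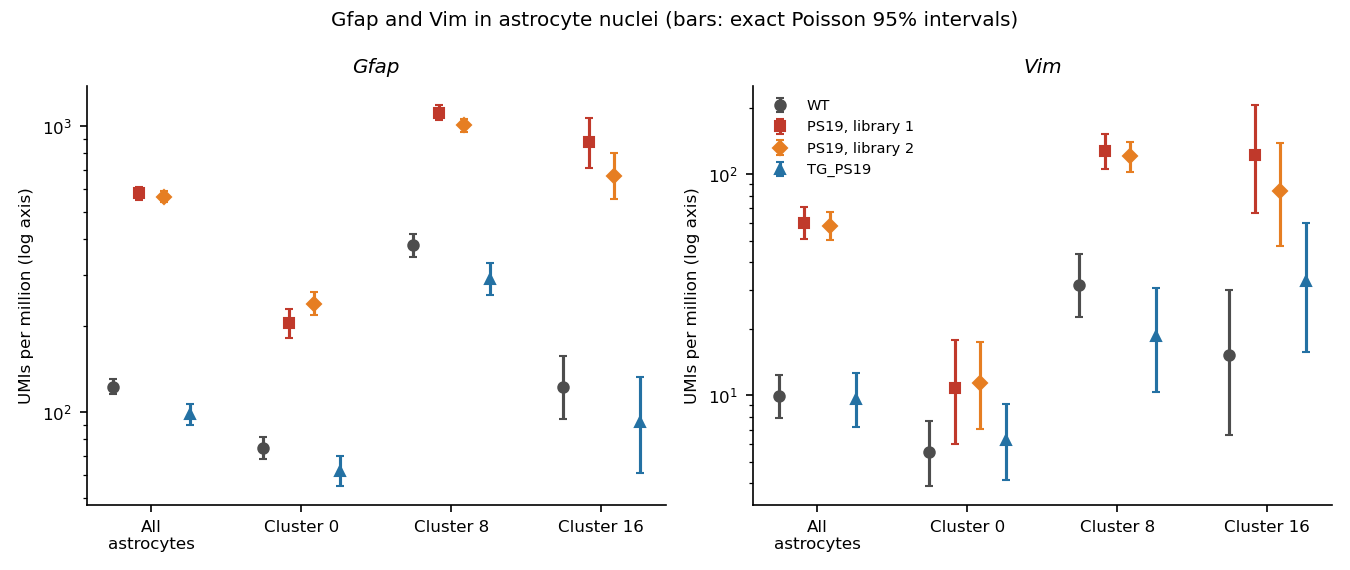
Gfap and Vim in all astrocytes and in astrocyte clusters 0, 8 and 16, in CPM on a log axis, 1 point per library with its 95% Poisson interval. For Gfap both PS19 points stand above the WT and TG_PS19 points in every cluster. For Vim they do so too, in cluster 8 at 127 and 120 against 31.7 in WT and 18.6 CPM in TG_PS19.

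Vim, which polymerises with Gfap, had the same order of libraries in astrocytes. Its level was 9.95 CPM in WT from 84 UMIs, 60.3 and 58.5 in PS19 from 147 and 196 UMIs, and 9.59 in TG_PS19 from 52 UMIs. WT and TG_PS19 were indistinguishable within counting error, and both PS19 libraries lay far above them. By edgeR, Vim rose in PS19 astrocytes against WT by 2.54 (SE 0.21, adjusted p = 2.00e-29) and fell by 2.45 in TG_PS19 against PS19 (SE 0.23, adjusted p = 6.01e-23). With the male-called TG_PS19 nuclei alone the fall of Vim against PS19 was larger, at -3.12 (SE 0.36, adjusted p = 8.67e-16 by edgeR). For TG_PS19 against WT edgeR gave 0.09 with all nuclei (SE 0.29, adjusted p = 0.955) and -0.57 with the male-called ones (SE 0.47, adjusted p = 0.719).

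Within clusters the Vim change passed the test in cluster 8 and not in cluster 0. In cluster 8 Vim was at 31.7 CPM in WT, 127 and 120 in PS19 and 18.6 in TG_PS19, with edgeR changes of 1.93 (adjusted p = 2.31e-10) and -2.56 (adjusted p = 1.42e-11). In cluster 0 it was at 5.53, then 10.7 and 11.4, then 6.26 CPM, with 1.03 (adjusted p = 0.268) and -0.71 (adjusted p = 0.514) by edgeR. In cluster 16 it was at 15.3, then 122 and 84.2, then 32.8 CPM. The difference between the 2 fitted clusters was itself not called, at 0.88 (adjusted p = 0.594) for PS19 against WT and -1.84 (adjusted p = 0.0613) for TG_PS19 against PS19.

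Among astrocytes with a Gfap UMI, the share that also had a Vim UMI was highest in the PS19 libraries. Among thinned WT astrocytes 2.54% of those with a Gfap UMI had a Vim UMI, against 0.883% of those without. In PS19 the shares were 12.7% against 1.92% and 8% against 3.06%. In TG_PS19 they were 1.42% against 1.26%. With a Gfap UMI the share came from 7 of 276 nuclei in WT and 2 of 141 in TG_PS19. Their exact binomial intervals, 1.03% to 5.16% and 0.17% to 5.03%, overlapped that of PS19 replicate 2, at 4.64% to 12.7%. Over all astrocytes a Vim UMI was found in 1.05% of WT, 5.38% and 4.49% of PS19 and 1.28% of TG_PS19 nuclei.

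**Figure D4:**
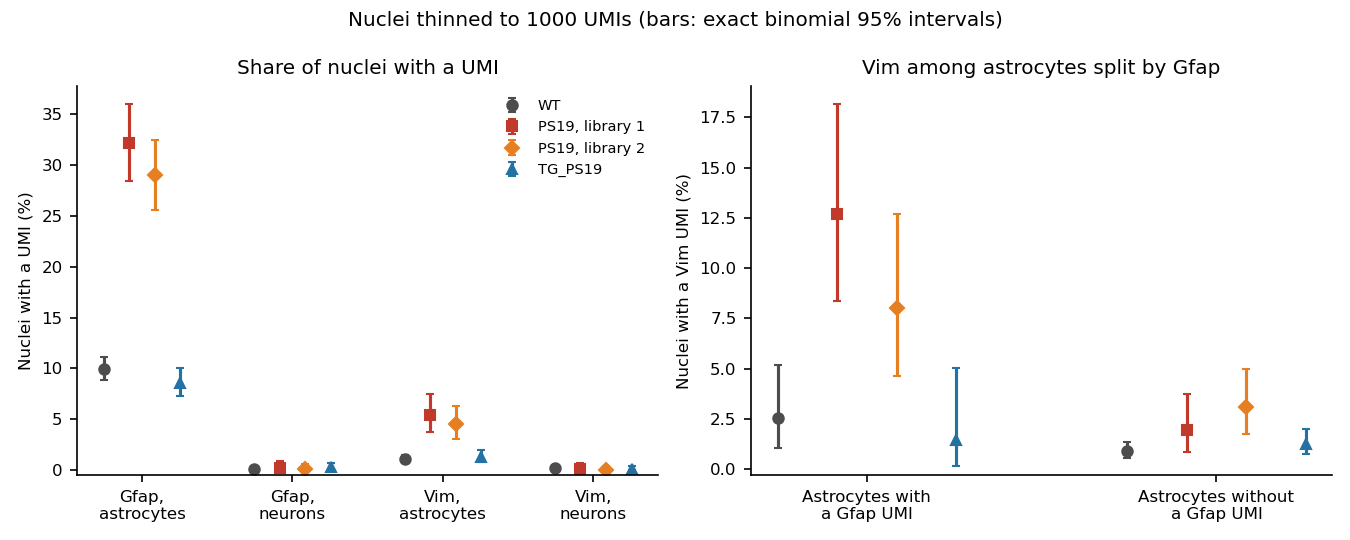
Left, percent of nuclei with a Gfap or Vim UMI among astrocytes and neurons thinned to 1000 UMIs, and right, percent with a Vim UMI among astrocytes with and without a Gfap UMI, 1 point per library with exact 95% binomial intervals. Gfap was found in 32.1% and 29.0% of PS19 astrocytes against 9.97% in WT and 8.58% in TG_PS19, while neurons stayed below 0.33% in every library.

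Astrocytes were not the class with the highest Vim level. In endothelial cells, which line the vessels, Vim was at 120.6 CPM in WT, 204.3 and 149.6 in PS19 and 179.6 in TG_PS19, where 16 of the 65 UMIs came from 1 nucleus. In fibroblasts it was at 37.7, then 60.0 and 40.2, then 54.0 CPM. WT was the lowest library in both classes, and TG_PS19 lay between the PS19 libraries. The edgeR changes in endothelial cells were 0.56 (SE 0.32, adjusted p = 0.906) for PS19 against WT and 0.08 (SE 0.32, adjusted p = 0.999) for TG_PS19 against PS19. In mural cells, the pericytes and smooth muscle of vessels, Vim was at 25.5, then 55.2 and 79.1, then 11.9 CPM, from 11, 15, 24 and 3 UMIs, and both PS19 libraries were above WT and TG_PS19 as in astrocytes. There edgeR gave 1.41 (SE 0.56, adjusted p = 0.421) and -2.42 (SE 0.76, adjusted p = 0.0909).

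Whether the Vim change differed between classes was tested in an edgeR fit of 2 classes with the library as a term, added after the data had been seen. For PS19 against WT the astrocyte change of Vim exceeded the endothelial one by 2.04 (SE 0.39, adjusted p = 0.0110, with 0.222% of genes called) and the fibroblast one by 2.09 (SE 0.34, adjusted p = 1.64e-06, 1.91% called). For TG_PS19 against PS19 the differences were -2.56 (SE 0.40, adjusted p = 0.00107, 0.209% called) and -2.59 (SE 0.39, adjusted p = 4.07e-07, 1.32% called). Against mural cells they were 1.18 (adjusted p = 1, 0.193% of genes called) and 0.01 (adjusted p = 1, 0.206% called), so no difference from mural cells was detectable at these counts.

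Outside astrocytes Gfap was sparse and uneven between the PS19 libraries. In oligodendrocytes it was at 2.01 CPM in WT, 6.86 and 3.64 in PS19 and 1.96 in TG_PS19, from 14, 33, 22 and 13 UMIs. Its edgeR changes there were 1.39 (SE 0.48, adjusted p = 0.0546) and -1.32 (SE 0.50, adjusted p = 0.0679), in the direction of astrocytes but short of the threshold. The summed astrocyte markers in oligodendrocytes, with none of the 10 at 0, ran the other way, at 765 CPM in WT, 318 and 272 in PS19 and 544 in TG_PS19, and their part in the Gfap values was not tested. The Gfap change in astrocytes did not differ detectably from that in oligodendrocytes (0.78, adjusted p = 0.548, and -1.05, adjusted p = 0.412, by edgeR, where 4.47% and 2.91% of genes were called).

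Several Gfap values rested on single nuclei. In mural cells Gfap was at 66.2 CPM in PS19 replicate 1 and at 0 in the other libraries, from 18 UMIs of which 16 were in 1 nucleus. In fibroblasts it was at 5.06 CPM in WT, 23.8 and 2.06 in PS19 and 5.14 in TG_PS19, and 13 of the 21 UMIs of PS19 replicate 1 were in 1 nucleus. In inhibitory neurons Gfap had 12 UMIs in PS19 replicate 2, 11 of them in 1 nucleus, and 0 in WT and PS19 replicate 1. These high values are single nuclei and not a level of the class. In Cajal-Retzius neurons Gfap was at 0 in WT, 15.4 and 24.7 in PS19 and 3.32 CPM in TG_PS19, from 0, 3, 6 and 1 UMIs, and the 3 UMIs of PS19 replicate 1 were in 1 nucleus. In pyramidal neurons 7 of the 9 Gfap UMIs of PS19 replicate 2 were in 1 nucleus. In microglia Gfap was at 1.00, then 19.8 and 1.20, then 1.39 CPM, where PS19 replicate 1 stood alone. That microglial value did not rest on a single nucleus, as its 13 UMIs lay in 9 nuclei with at most 4 in 1 of them. Dentate granule neurons were between 1.01 and 2.02 CPM in all libraries.

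Synm, a large filament protein that joins vimentin polymers, did not follow Gfap and Vim. In astrocytes it was at 11.96 CPM in WT, 9.85 and 11.34 in PS19 and 15.67 in TG_PS19, the highest in TG_PS19 and overlapping between PS19 and WT within counting error. The edgeR changes were -0.19 (SE 0.28, adjusted p = 0.842) for PS19 against WT and 0.72 (SE 0.29, adjusted p = 0.0992) for TG_PS19 against PS19. Endothelial cells had the most Synm, with 61.2 CPM in WT, 61.7 and 57.5 in PS19 and 88.4 in TG_PS19. Fibroblasts came next at 44.5, then 47.6 and 36.0, then 32.1 CPM, and oligodendrocytes were steady at 21.7, then 23.7 and 20.2, then 20.8 CPM. No Synm change passed the edgeR test in the 8 classes where it was tested, beside 2.76%, 4.83% and 1.93% of all tests in the 12 classes.

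Nes, the filament of neural progenitors that reactive astrocytes can take up again, was near absent from the astrocytes. It had 9 UMIs in 2778 WT astrocytes, 1 and 4 in the PS19 libraries and 0 in 1659 TG_PS19 astrocytes, all at or below 1.19 CPM. Its highest level was in mural cells, at 44.0 CPM in WT, 36.8 and 56.0 in PS19 and 15.9 in TG_PS19. In endothelial cells Nes was at 32.4, then 23.1 and 17.3, then 27.6 CPM, and in fibroblasts between 6.42 and 8.24 CPM. TG_PS19 was the lowest library in mural cells, from 4 UMIs, and lay among the others in endothelial cells. The edgeR change of TG_PS19 against PS19 in mural cells was -1.49 (SE 0.78, adjusted p = 0.621).

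None of the neuronal filament genes passed the test in a neuron class, in any of the 3 comparisons. Of all genes, 3.13%, 9.21% and 6.06% were called in dentate granule neurons. In pyramidal neurons 0.101%, 1.68% and 0.459% were called, and in inhibitory neurons 0.807%, 1.87% and 2.1%. At such shares, 0 calls among so few genes says little about them. Nefl, the core neurofilament chain, was at 26.9 CPM in dentate granule neurons of WT, 21.5 and 22.9 in PS19 and 20.9 in TG_PS19. The PS19 and TG_PS19 libraries lay close together and slightly below WT. The edgeR changes were -0.25 for PS19 against WT (SE 0.17, adjusted p = 0.566) and 0.01 for TG_PS19 against PS19 (SE 0.18, adjusted p = 0.991). Pyramidal neurons were at 19.4, then 19.7 and 24.9, then 14.4 CPM, with WT just below both PS19 libraries and TG_PS19 the lowest. The other excitatory neurons were at 19.1, then 14.0 and 19.4, then 14.3 CPM, with WT between the PS19 libraries. Inhibitory neurons held less Nefl, between 6.72 and 12.1 CPM.

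Nefm, the medium chain whose tail forms side arms, was at 20.3 CPM in dentate granule neurons of WT, 19.5 and 14.9 in PS19 and 18.3 in TG_PS19, with WT and TG_PS19 on either side of PS19 replicate 1. The edgeR changes were -0.24 (SE 0.19, adjusted p = 0.659) and 0.21 (SE 0.20, adjusted p = 0.623). In inhibitory neurons Nefm was at 10.9 CPM in WT, 15.7 and 12.5 in PS19 and 30.9 in TG_PS19, which stood above the other 3 libraries. That level came from 46 UMIs in 20 of 176 nuclei, with 11 UMIs in 1 of them. The edgeR change of TG_PS19 against WT was 1.56 (SE 0.51, adjusted p = 0.0837), and that against PS19 was 1.23 (SE 0.44, adjusted p = 0.151).

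Nefh, the heavy chain, was too sparse to follow. It had 44 UMIs in all kept WT nuclei, 17 and 13 in PS19 and 33 in TG_PS19. It was between 2.38 and 3.58 CPM in the other excitatory neurons, and at 4.21 CPM in WT, 0 in both PS19 libraries and 2.69 CPM in TG_PS19 in inhibitory neurons, so no class stood highest in every library. Only dentate granule neurons, between 0.61 and 1.57 CPM, had enough counts for the test. The edgeR changes of Nefh there were -0.49 (SE 0.79, adjusted p = 0.873) and -0.71 (SE 1.02, adjusted p = 0.764), with the widest errors of the 4 neuronal filament genes in that class. The change of -0.49, for PS19 against WT, took the other sign under at least 1 alternative.

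Ina, α-internexin, was spread over all neuron classes. Cajal-Retzius neurons were the highest, at 69.8 CPM in WT, 118.0 and 78.1 in PS19 and 69.8 in TG_PS19. Dentate granule neurons were at 54.2, then 52.9 and 54.0, then 45.7 CPM. The edgeR changes of Ina there were -0.003 (SE 0.13, adjusted p = 0.996) for PS19 against WT and -0.13 (SE 0.13, adjusted p = 0.663) for TG_PS19 against PS19. TG_PS19 was the lowest library for Ina in dentate granule, pyramidal, inhibitory and other excitatory neurons. In pyramidal neurons Ina was at 60.5, then 51.0 and 50.6, then 39.5 CPM, and in inhibitory neurons at 59.7, then 48.7 and 49.9, then 34.9 CPM. For TG_PS19 against WT edgeR gave -0.57 (SE 0.19, adjusted p = 0.287) in pyramidal and -0.70 (SE 0.35, adjusted p = 0.488) in inhibitory neurons. Oligodendrocyte precursors held Ina too, at 19.2, then 11 and 17.3, then 6.18 CPM (-1.51 for TG_PS19 against WT, SE 0.54, adjusted p = 0.230 by edgeR).

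The third call of TG_PS19 against PS19 was Nefl in astrocytes, on few UMIs. Nefl was at 4.14 CPM in WT astrocytes from 35 UMIs, 1.23 and 1.49 in PS19 from 3 and 5 UMIs, and 4.61 in TG_PS19 from 25 UMIs. Both PS19 libraries were low, and WT and TG_PS19 lay within each other's counting error. By edgeR it rose by 1.89 in TG_PS19 against PS19 (SE 0.66, adjusted p = 0.0400), and PS19 against WT gave -1.60 (SE 0.63, adjusted p = 0.120). General neuron markers in the same astrocytes, with none of the 6 at 0, summed to 475 CPM in WT, 270 and 272 in PS19 and 461 in TG_PS19, low in the same PS19 libraries as Nefl, and their part in the result was not tested. The call was lost with library totals as the scaling (1.72, adjusted p = 0.0618) and with doublets kept (1.71, adjusted p = 0.0560). DESeq2 gave 1.93 for Nefl with an unadjusted p of 0.125 and no adjusted p, and within cluster 0 edgeR gave 1.5 (adjusted p = 0.419). At 1000 UMIs per nucleus 0.51% of WT, 0.16% and 0.14% of PS19 and 0.18% of TG_PS19 astrocytes had a Nefl UMI. These shares came from 14, then 1 and 1, then 3 nuclei, too few to tell at equal depth whether TG_PS19 and PS19 differed. With male-called TG_PS19 nuclei alone Nefl gave 2.54 (SE 0.81, adjusted p = 0.0246 by edgeR).

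Other genes of filament biology were taken as lists. The lists were chosen with earlier results of these data known, so their counts beside those of all genes are a description and not an independent test. Among reactive astrocyte genes, which left out the 8 genes, 22 of 28 were tested in astrocytes. For PS19 against WT 15 of the 22 rose and 0 fell, where 3.39% of all genes tested there rose, and their median change was 1.92 against 0.01 for all genes. For TG_PS19 against PS19 0 rose and 15 fell, where 4.03% of all genes fell, with a median of -1.98 against -0.01. For TG_PS19 against WT edgeR called 0 in either direction, with a median of -0.31. The complement gene C4b was at 53.7 normalised CPM in WT, 254 and 196 in PS19 and 52.7 in TG_PS19, and the matrix receptor gene Cd44 at 10.3, then 66.4 and 69.9, then 11.3. The chemokine gene Cxcl10 was at 2.58, then 55.4 and 22.7, then 0.605 normalised CPM. By edgeR, Cd44 rose by 2.72 in PS19 against WT and Cxcl10 fell by 5.91 in TG_PS19 against PS19, with C4b changing by 2.06 and -2.09 in these comparisons. The directions of this list were not particular to astrocytes. In microglia, with 9 of its genes tested, its medians in these comparisons were 1.62 and -1.62, beside 0.01 and -0.01 for all genes. In oligodendrocytes, with 14 tested, they were 0.20 and -0.98.

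Linkers, chaperones and turnover factors of filaments formed a further list. Of 13 listed genes 11 were tested in astrocytes, and 1 rose and 0 fell in PS19 against WT, beside 3.39% and 2.8% of all genes, with a median change of 0.17 against 0.01 for all genes. It was Dst, a giant linker between filaments and other cytoskeletal systems, at 379 normalised CPM in WT, 523 and 498 in PS19 and 442 in TG_PS19 (0.43, SE 0.13, adjusted p = 0.0156 by edgeR). edgeR called 0 of the 11 in TG_PS19 against PS19, beside 9.71% of all genes, and Macf1, the related linker, gave 0.18 (SE 0.12, adjusted p = 0.423). Of 11 other intermediate filament genes, which hold the nuclear lamins, keratins and desmin, 5 were tested in astrocytes, and 0 passed in PS19 against WT, beside 6.19% of all genes. When TG_PS19 was set against PS19, 1 fell, beside 4.03% of all genes. It was Lmna, the gene of lamins A and C, at 13.7, then 24.5 and 18.7, then 11.7 normalised CPM (-0.86, SE 0.27, adjusted p = 0.0208 by edgeR).

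Genes of the axonal cytoskeleton were taken with the neurofilaments. In dentate granule neurons all 15 were tested, 0 passed in PS19 against WT, where 3.13% of all genes were called, and the median change was 0.06. In TG_PS19 against PS19 0 rose and 1 fell, where 9.21% of all genes were called and 3.02% fell: the β-tubulin gene Tubb2a, at 29.0, then 37.9 and 35.6, then 24.0 normalised CPM (-0.61, SE 0.16, adjusted p = 0.0039 by edgeR). For TG_PS19 against WT edgeR called 0 of the 15, beside 6.06% of all genes. In pyramidal neurons edgeR called 0 of the 15 in each of the 3 comparisons, beside 0.101%, 1.68% and 0.459% of all genes. In inhibitory neurons it called 0 as well, beside 0.807%, 1.87% and 2.1%. In astrocytes 2 of 14 of these genes fell when PS19 was set against WT, where 2.8% of all genes fell. They were Map2 (-0.40, adjusted p = 0.027) and Stmn2 (-1.66, adjusted p = 0.033 by edgeR). Map2 rose when TG_PS19 was set against PS19 (0.50, adjusted p = 0.002 by edgeR), 1 of 14 where 5.68% of all genes rose, the directions of Nefl in that class.

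Across the 48 combinations of tested class and library, the genes whose level most resembled that of Gfap were Mt2 (Pearson's r = 0.928 of log2(CPM + 10)), Plcd4 (0.886) and Mt1 (0.883), among 11559 genes compared. For Vim they were Ifitm3 (0.954), Ahnak (0.953) and Acacb (0.946). For Nefl they were Ccsap (0.933), Kcnab2 (0.926) and Camk2a (0.914), and for Nefm A830018L16Rik (0.952), Gm15680 (0.945) and Cacng3 (0.945). The points share 4 libraries and 12 classes, so these values describe the pattern over classes, with no test.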

How the data were processed

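The deposited matrices hold raw UMI counts per gene and nucleus deposited by the authors. Per the file headers they come from Cell Ranger 7.1.0, and per the submitters' processing notes the build was GRCm38. The annotation release and the use of strand and of intron reads are not given in the sources used here. The 8 genes, the marker lists and the gene lists were chosen with earlier results of these data known.

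Nuclei with at least 500 UMIs, 300 genes and at most 5% mitochondrial UMIs were kept, which removed 7 barcodes. Doublets were scored by Scrublet's method in own code, and 1303 WT, 172 and 194 PS19 and 756 TG_PS19 barcodes were left out. Clusters (scanpy 1.11.5, leidenalg 0.10.2, 2000 variable genes without the 8 genes, 30 components, 15 neighbours, resolution 1.0) numbered 27. A cluster took a class name from raised markers in 21 lists, so a class means nuclei resembling it. Ependymal, choroid plexus, T and newly formed oligodendrocyte cells had under 50 nuclei in a library and were not tested. Clusters left without a name were not tested either. Counts were summed per class and library and fitted with edgeR 4.0.16 (R 4.3.3; low-count filter, TMM scaling, quasi-likelihood F-test, two-sided, Benjamini-Hochberg within a class at 0.05) over all 4 libraries. This left 1 residual degree of freedom, and the lone libraries were assumed to vary like the PS19 pair. Normalised CPM use TMM scaling. Genes named in a list were the 2 lowest adjusted p in each direction, or else the 2 most abundant. Over genes with at least 20 UMIs the PS19 pair gave a chi-square per degree of freedom above 1 in each class. The edgeR step was run on simulated data with the same dispersion in all genes and libraries. That run cannot check whether the lone libraries vary like the PS19 pair. Alternatives were other scaling, filter, tool, doublet rule, resolution, thinning, single PS19 libraries left out and the male-called TG_PS19 nuclei alone.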

Additional observations from a re-analysis of the deposited data

Results flagged for a closer look

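The effect on Vim differed between astrocytes and 3 of the 4 other classes tested, in both comparisons with PS19. These differences were tested as such by edgeR, in fits of 2 classes with the library as a term, and each difference is the astrocyte change minus the other. For PS19 against WT the Vim differences were 2.04 against endothelial cells, 2.09 against fibroblasts and 2.86 against oligodendrocytes, the last with an adjusted p of 1.96e-05 where 4.47% of genes were called. For TG_PS19 against PS19 they were -2.56, -2.59 and -2.39 in the same order, the last with an adjusted p of 0.00897 where 2.91% of genes were called. Against mural cells, the fourth class, the differences were 1.18 and 0.01 (adjusted p = 1 for each). Both comparisons share the PS19 libraries. Vim in oligodendrocytes was at 2.58 CPM in WT, 2.29 and 1.65 in PS19 and 1.81 in TG_PS19.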

How the results depend on the processing

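Gfap and Vim in astrocytes kept their calls and directions for PS19 against WT and TG_PS19 against PS19 in all 12 alternatives that gave a test over classes. Leaving out PS19 replicate 1 or 2 gave no test, and Gfap in astrocytes then ranged from 2.19 to 2.21 and from -2.37 to -2.39. With doublets kept, 4 and 5 of 46 combinations of gene and class were called in these comparisons. Beside them, 5101 and 7627 of 155325 tests of all genes were called. The added calls were Gfap in fibroblasts and mural cells and Synm in astrocytes (0.88 for TG_PS19 against PS19, adjusted p = 0.027 by edgeR). With adjusted residual degrees of freedom, an alternative added after the data had been seen, Gfap in oligodendrocytes was called for PS19 against WT (1.38, adjusted p = 0.041 by edgeR) and Nefl in oligodendrocytes for TG_PS19 against PS19 (1.36, adjusted p = 0.0497 by edgeR). Gfap in oligodendrocytes was called for TG_PS19 against PS19 with male-called TG_PS19 nuclei alone (-3.19, adjusted p = 0.037 by edgeR). Without a low-count filter Gfap in mural cells, at 0 in 3 libraries, was called for PS19 against WT (adjusted p = 0.0456 by edgeR). Over all genes, the 4027, 7057 and 2818 calls of the 3 comparisons became 1500, 2036 and 747 after thinning and 371, 785 and 144 with DESeq2, and with male-called nuclei alone the last 2 became 4684 and 1571. With library totals as the scaling, the median of all genes in astrocytes went from -0.01 to -0.18 for TG_PS19 against PS19, and the split over the 12 classes went from 4515 higher and 2542 lower to 3466 and 4307. For TG_PS19 against WT the split went from 2003 and 815 to 1362 and 1656.

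Uncalled values close to 0 changed sign. Vim in astrocytes for TG_PS19 against WT was -0.053 with library totals, -0.57 with male-called nuclei and -0.63 in cluster 8. Synm in astrocytes for PS19 against WT was 0.022 thinned and 0.084 in cluster 8. In dentate granule neurons, Nefl for TG_PS19 against PS19 was -0.090 with library totals and from -0.050 to 0.073 without 1 PS19 library, and Ina for PS19 against WT was 0.016 with doublets kept and from -0.039 to 0.026 without 1 PS19 library. Ina there was 0.11 for TG_PS19 against PS19 when thinned. Vim in endothelial cells for TG_PS19 against PS19 was -0.14 with doublets kept, -0.55 thinned, -0.62 with male-called nuclei and from -0.14 to 0.29 without 1 PS19 library. The cause was not tested. The share of astrocytes with a Gfap UMI was 6.30%, then 19.4% and 18.4%, then 3.68% at 500 UMIs, and 22.7%, then 53.7% and 57.4%, then 21% without thinning. No paired analysis was possible because WT and TG_PS19 have 1 library each, with no replicate number in the labels.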

Other observations

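An unnamed cluster, led by Sfta3-ps and Hpse2, had Gfap at 75.8 CPM in WT, 110 and 195 in PS19 and 360 in TG_PS19. These came from 15, then 4 and 19, then 4 UMIs, so the order of the libraries is not set by the counts. All unnamed clusters together made up 3.85% of kept nuclei in WT, 0.604% and 0.804% in PS19 and 7.45% in TG_PS19. Their median in TG_PS19 was 1033 UMIs per nucleus. They held 24 Gfap UMIs in WT, 6 and 21 in PS19 and 46 in TG_PS19, outside every tested class. Ependymal cells, which were in no tested class, held Gfap in PS19 replicate 2 at 336 CPM, with 17 of 19 UMIs in 1 nucleus.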
